A study of Macaca fascicularis with 12 samples.

Results

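The collagen genes were followed in iliac arteries of cynomolgus monkeys (Macaca fascicularis) with plaques of different size. The array annotation gives 52 of its 54359 probes a single symbol of the form COL, a number, A and a number, and these probes represent 39 genes. Values were present for 51 of the 52, since 1 probe of COL27A1 (125085) was empty on every array. By the structure of their chains, 16 of the 51 probes (11 genes) belong to fibrillar collagens, 9 (6 genes) to basement membrane collagen, 11 (9 genes) to FACIT collagens, which sit on the surface of fibrils, 2 (2 genes) to transmembrane collagens and 13 (11 genes) to other types. Another 6 probes carry a collagen symbol together with other symbols and were not used. Of the 39 symbols, 38 also occur in the macaque annotation T2T-MFA8v1.1.

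Collagens are triple helices of 3 chains that give an artery its tensile strength. Fibrillar types I and III are laid down by smooth muscle cells and fibroblasts, type V takes part in starting fibrils and type IV forms the sheet-like network of the basement membrane that surrounds each smooth muscle cell and underlies the endothelium. In atherosclerosis, collagen made by smooth muscle cells forms the fibrous cap, and proteases released by macrophages can break it down.

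Total RNA was measured in 12 left iliac arteries, 1 artery and 1 array for each animal. Per the labels, every animal was a female of more than 20 years whose ovaries had been removed 4 years earlier and who had eaten a high fat diet for 8 years, with no other treatment. No group on a normal diet or with intact ovaries was analysed here. The submitters sorted the arteries by measured plaque area into small, medium and large plaque. The 4 small-plaque arteries had areas of 0.113, 0, 0.041 and 0 mm2 in replicates 1 to 4, so the reference group of each comparison held 2 arteries with no plaque. The 5 medium-plaque arteries had areas of 0.448, 0.30, 0.391, 0.542 and 0.516 mm2, and the 3 large-plaque arteries of 1.003, 0.61 and 0.873 mm2. The RNA came from artery biopsies and not from plaque alone, so a group name below stands for the arteries of that group. In such tissue, fewer cells of a type and less RNA per cell cannot be told apart. The probes were designed on human transcripts, and a mismatch to the monkey sequence can dim a probe. Values are therefore compared between animals on the same probe and not between probes.

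Each array gave 53832 to 53867 values with a median intensity between 1.00 and 1.01, and its 99th percentile lay between 114 and 196. Intensity is in the arbitrary units of the deposited table, and the levels below are its log2. Of 9 macrophage markers 8 were higher in medium than in small plaque and 7 in large than in small, and their summed intensity was 68.2 to 124.3 in small, 258.6 to 567.5 in medium and 294.2 to 421.5 in large plaque. Of 6 smooth muscle markers 2 were lower in medium than in small plaque (MYLK by 1.61 and SMTN by 2.39 on the log2 scale) and MYLK also in large plaque (by 1.48, limma adjusted p 0.0428), and their sum was 1398 to 2202, 665 to 1233 and 857 to 1304. The MYLK call in large plaque was lost, with limma adjusted p from 0.0531 to 0.169, without any 1 small or large artery or medium replicate 5, and also under quantile normalization (0.0731) and with the floor at the 1st percentile (0.0553). A block for replicate number in the fit also ended this call (0.074). MYLK encodes myosin light chain kinase and SMTN smoothelin, a protein of contractile smooth muscle. At a limma adjusted p under 0.05, 1.97% of all probes were higher and 1.17% lower in medium than in small plaque. In large against small plaque these shares were 0.948% and 0.197%. None of 7 markers of adventitial fibroblasts (sums 324 to 477, 120 to 516 and 265 to 474), 7 of endothelium, 4 of adipocytes, 6 of cartilage-like cells, 3 of Schwann cells or 5 of skeletal muscle passed the test in any comparison. The endothelial marker KDR and the fibroblast marker PI16 read below the array median on every array, and KDR at the floor on 4. Sums within these lists rest mainly on their brightest probes. How far shifts in cell make-up take part in the collagen differences was not tested.

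Few collagen probes moved with plaque size, and those that did belong mostly to minor collagens rather than to the bulk types I and III. A probe was called when its p from limma, corrected by Benjamini-Hochberg for the 53877 probes tested, was under 0.05. In medium against small plaque 5 of 51 collagen probes (9.8%) were called, beside 3.14% of all probes. The 1 higher probe was that of COL7A1, beside 1.97% of all probes called higher, and the 4 lower probes were those of COL13A1, COL27A1 and COL4A6, the latter on both its probes, beside 1.17% called lower. In large against small plaque 3 of 51 (5.88%) were called, beside 1.15% of all probes, and all 3 were lower (of all probes, 0.197% were called lower and 0.948% higher), namely COL27A1, COL13A1 and COL9A1. These 2 comparisons share the small-plaque arteries. At an unadjusted limma p under 0.05 stood 11 and 13 of the 51 collagen probes, beside 18.3% and 16.1% of all probes. In large against medium plaque 0 of 51 were called, as of all probes (0%), with 2 collagen probes and 5.04% of all probes at an unadjusted limma p under 0.05. The labels give 2 animals, small replicate 4 and medium replicate 5, identity numbers far from the others', and no batch. Without both, the counts were 2, 1 and 0. With single arteries left out the medium against small count was 3 without small replicate 2, small replicate 4, medium replicate 1 or medium replicate 4, and the large against small count was 1 without small replicates 2, 3 or 4, medium replicate 5 or large replicate 3, and 5 without small replicate 1.

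**Figure D1:**
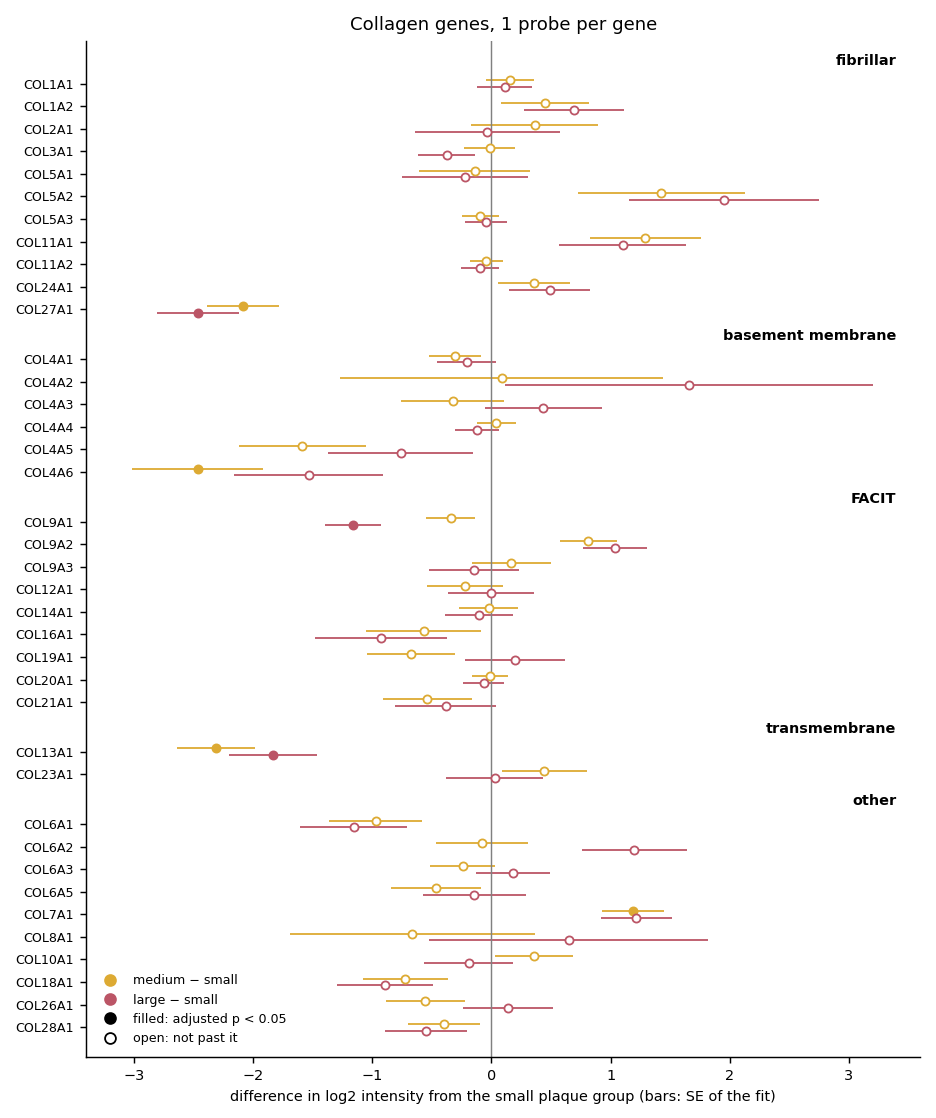
Difference in log2 intensity from the small-plaque group for 38 collagen genes, 1 probe for each, by class of chain; points are medium minus small and large minus small plaque, bars are the standard error of the limma fit, and filled points are called. The filled points of COL27A1, COL13A1 and COL4A6 lie between -1.83 and -2.46, that of COL9A1 at -1.16 and that of COL7A1 at 1.19.

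With 1 probe for each gene, the brightest with a value on every array (38 genes, COL15A1 having none), collagens were close to the rest of the array. The median difference was -0.12 in medium against small plaque (13 genes above 0 and 25 below) beside -0.03 over 18080 genes, -0.08 in large against small plaque (15 above and 23 below) beside -0.05, and 0.04 in large against medium plaque beside -0.02. With 1 artery left out these medians ran from -0.231 to -0.081, from -0.117 to -0.039 and from -0.012 to 0.137, so the last changed sign. By class, the median difference in medium against small plaque was 0.16 for the 11 fibrillar genes, -0.32 for the 6 basement membrane genes, -0.22 for 9 FACIT genes and -0.43 for 10 genes of other types. In large against small plaque these medians were -0.04, -0.16, -0.10 and -0.00. Groups without overlap between any of their arteries were found for 1 collagen probe higher and 5 lower in medium against small plaque, beside 3.94% and 4.34% of all probes, and for 3 higher and 7 lower in large against small plaque, beside 5.99% and 8.52%. In large against medium plaque there were 2 higher (COL6A2 and COL19A1) and 2 lower (COL9A1 and COL27A1 probe 448005), beside 2.53% and 2.93%.

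Among fibrillar collagens COL27A1 was the 1 gene called, lower in both comparisons with small plaque. It encodes the chain of type XXVII collagen, a fibrillar collagen known mainly from cartilage and growth plate. On probe 311014 the log2 level was 6.20, 6.18, 6.86 and 5.77 in small, 3.76, 4.24, 4.90, 3.91 and 4.03 in medium, and 4.17, 4.12 and 3.09 in large plaque. Every medium and large artery lay below every small one, and the medium and large ranges overlapped. The level fell by 2.08 ± 0.31 (standard error of the fit, 4.24-fold, limma adjusted p 0.00407) from small to medium plaque. It fell by 2.46 ± 0.35 (5.51-fold, limma adjusted p 0.00644) from small to large plaque, and both calls held under all 23 alternative settings tried. Large and medium plaque differed by -0.38 ± 0.33 (limma adjusted p 0.962).

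The 2 other measured probes of COL27A1 did not follow. Probe 11008 read 2.05, 1.89, 2.55 and 1.80 in small, 2.25, 2.21, 2.24, 2.38 and 2.28 in medium, and 1.97, 2.23 and 2.26 in large plaque, with overlapping groups. Its differences from small plaque were 0.20 ± 0.17 in medium (95% interval -0.16 to 0.57) and 0.08 ± 0.19 in large plaque (-0.33 to 0.50). Probe 448005, dimmer than the median probe, read -0.67, -1.22, -0.28 and -0.66 in small, -0.50, -0.48, -0.27, -0.52 and -0.46 in medium, and -0.89, -0.82 and -0.64 in large plaque. Its differences were 0.26 ± 0.18 (-0.13 to 0.66) and -0.07 ± 0.21 (-0.53 to 0.38). The intervals of both probes lie above the differences seen on probe 311014, so the fall of COL27A1 rests on 1 of 3 probes. Probe 448005 reads below the array median, where signal over background limits the fall that it could show. Which transcripts of the monkey gene each probe binds was not tested.

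COL1A1 and COL1A2 encode the chains of type I collagen, the main collagen of the artery wall. On COL1A1 probe 145091 the level was 5.34, 5.55, 6.53 and 4.84 in small, 5.93, 5.31, 6.32 and 6.27 in medium replicates 1 to 4 (medium replicate 5 had no value), and 6.53, 5.72 and 5.65 in large plaque. The second probe, 358086, read 2.82, 2.77, 2.79 and 2.32 in small, 2.92, 2.50, 2.59, 3.38 and 2.77 in medium, and 3.02, 2.64 and 2.70 in large plaque. The groups overlapped on both probes. Probe 145091 differed by 0.39 ± 0.37 in medium (95% interval -0.42 to 1.20) and by 0.40 ± 0.40 in large plaque (-0.47 to 1.27), and probe 358086 by 0.16 ± 0.20 (-0.28 to 0.59) and 0.11 ± 0.23 (-0.39 to 0.61). At their upper ends these intervals allow a rise of up to 1.27 on the first probe and 0.61 on the second.

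COL1A2 probe 145105 read 4.61, 4.57, 4.92 and 5.20 in small, 6.03, 5.44, 5.30, 4.56 and 5.04 in medium, and 6.60, 5.18 and 4.76 in large plaque. Large replicate 1, the artery with the largest plaque, was the highest of the 12. The differences were 0.45 ± 0.37 and 0.69 ± 0.42 (limma adjusted p 0.561 and 0.453). Its other probes were dimmer and disagreed in sign, 291107 at -0.37 ± 0.15 and -0.33 ± 0.18, and 378073 at 0.13 ± 0.16 and 0.17 ± 0.18. COL3A1, whose product forms mixed fibrils with type I, read 6.72, 6.05, 6.32 and 6.48 in small, 6.31, 6.71, 6.21, 5.99 and 6.65 in medium, and 5.79, 6.42 and 5.84 in large plaque. Its difference from small plaque was -0.02 ± 0.21 in medium (95% interval -0.48 to 0.45) and -0.38 ± 0.24 in large plaque (-0.90 to 0.15).

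**Figure D2:**
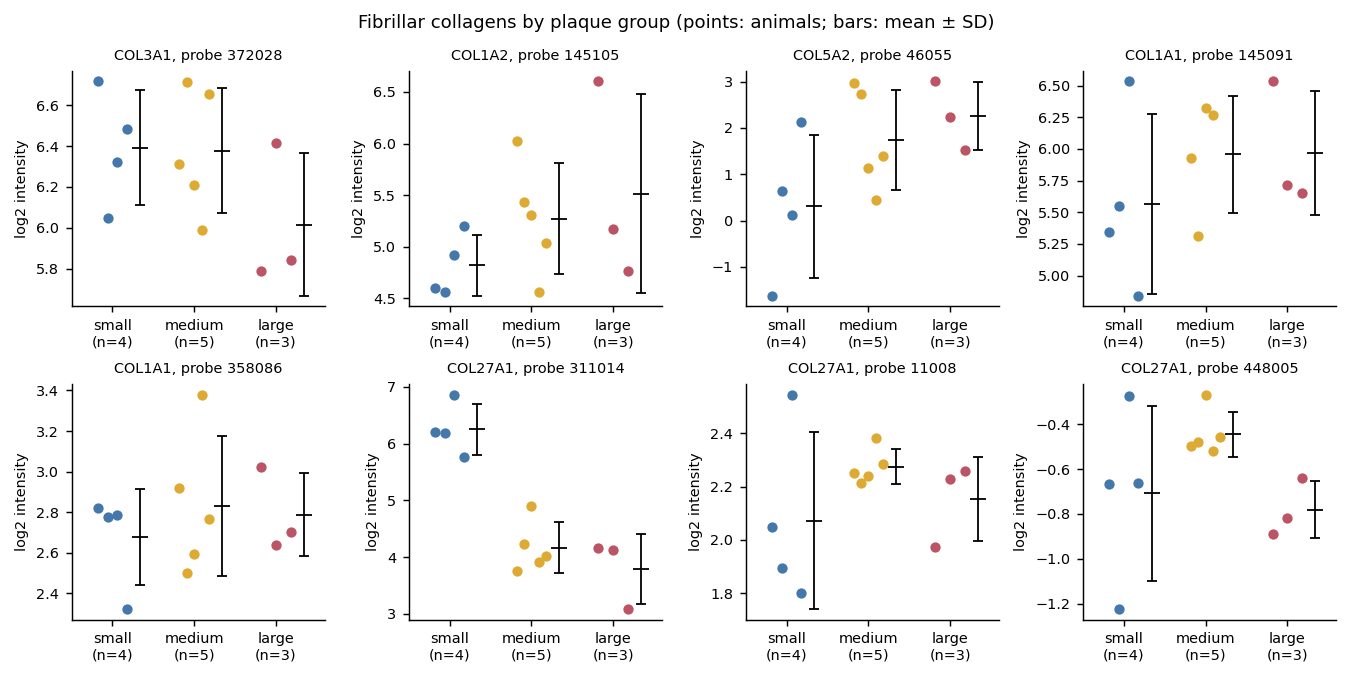
Log2 intensity of fibrillar collagen probes in each of the 12 arteries, by plaque group; points are arteries and bars are the group mean ± SD (n = 4, 5 and 3). COL27A1 probe 311014 lies between 5.77 and 6.86 in small plaque and between 3.09 and 4.90 in the other arteries, while both COL1A1 probes and COL3A1 overlap between groups. COL1A1 probe 145091 has no value in medium replicate 5, so n is 4 for its medium group.

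Of the type V and XI chains, which take part in starting and sizing fibrils, COL5A2 and COL11A1 had differences above 1 that were not called, and COL5A1, COL5A3 and COL11A2 lay near 0. COL5A2, a chain of type V collagen and the neighbour of COL3A1 in the macaque annotation, read -1.62, 0.63, 0.11 and 2.12 in small, 2.97, 2.73, 1.14, 0.45 and 1.39 in medium, and 3.01, 2.24 and 1.53 in large plaque. It differed by 1.43 ± 0.70 and 1.95 ± 0.80 (limma adjusted p 0.306 and 0.257), and small replicates 2 and 4 overlapped the medium arteries. COL11A1, a chain of type XI collagen known from cartilage, read -0.07, 0.06, 0.17 and 0.89 in small, 3.23, 1.19, 0.96, 0.57 and 1.81 in medium, and 1.84, 1.51 and 0.74 in large plaque. It differed by 1.29 ± 0.47 and 1.10 ± 0.53 (limma adjusted p 0.165 and 0.336), and of the small arteries replicate 4 alone overlapped the others. COL24A1 differed by 0.36 and 0.49, COL2A1, the cartilage collagen, by 0.36 and -0.04, COL5A1 by -0.14 and -0.22, COL5A3 by -0.09 and -0.05, and COL11A2 by -0.04 and -0.09, and none of these was called. COL5A1 and COL2A1 were dim and each read the floor of -3.17 on at least 1 array.

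In the basement membrane class the called gene was COL4A6, whose product joins that of COL4A5 in the type IV network around smooth muscle cells. COL4A6 probe 128068 read 4.79, 4.78, 4.76 and 5.34 in small, 1.86, 4.21, 3.37, 2.07 and 0.75 in medium, and 3.45, 3.68 and 3.01 in large plaque. Probe 405023 read 4.00, 4.02, 4.00 and 4.54 in small, 1.06, 3.33, 2.58, 1.24 and 0.87 in medium, and 2.62, 2.97 and 2.17 in large plaque. On both probes every medium and large artery lay below every small one. From small to medium plaque the level fell by 2.46 ± 0.55 on probe 128068 (5.52-fold, limma adjusted p 0.0328) and by 2.32 ± 0.46 on probe 405023 (5.00-fold, limma adjusted p 0.0186). In large plaque the differences were -1.53 ± 0.63 and -1.55 ± 0.52 and were not called (limma adjusted p 0.255 and 0.169), but both probes were called lower (limma adjusted p 0.0448 and 0.0485) when the fit held the large and small arteries only. Probe 128068 lost its call, with limma adjusted p from 0.0601 to 0.0804, without any 1 of the 4 small arteries or without medium replicate 1 or 4, whereas probe 405023 kept its call without any 1 artery and lost it, at 0.0861, without both animals of distant identity number. With all arteries kept, the call of probe 128068 was also lost with array weights (0.0657) and with a block for replicate number (0.0754). That block also ended the call of probe 405023 (0.0679). With only the medium and small arteries in the fit, probe 128068 lost its call too (0.0635).

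COL4A5, next to COL4A6 in the macaque annotation, read 2.96, 2.72, 2.74 and 3.83 in small, 1.62, 2.92, 2.27, 0.13 and 0.45 in medium, and 2.41, 2.94 and 1.56 in large plaque. It was not called (-1.59 ± 0.53 in medium and -0.76 ± 0.61 in large plaque, limma adjusted p 0.138 and 0.583). Medium replicates 1, 4 and 5 were the lowest of the 12 arteries on both COL4A6 probes and, of the medium arteries, on COL4A5. This pattern was noticed in the values and has no test. The same 3 arteries had the largest plaques of their group, 0.448, 0.542 and 0.516 mm2, and the lowest summed smooth muscle markers of it, 665, 692 and 936 against 1189 and 1233 in medium replicates 2 and 3. The part of smooth muscle content in these values was not tested.

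COL4A1 and COL4A2, the chains of the common type IV network, lie side by side in the macaque annotation. COL4A1 probe 6072 read 6.43, 6.69, 7.24 and 7.15 in small, 6.51, 6.68, 6.89, 6.22 and 6.55 in medium, and 6.90, 6.83 and 6.28 in large plaque. It differed by -0.31 ± 0.22 (95% interval -0.78 to 0.17) and -0.21 ± 0.25 (-0.75 to 0.34), and its dimmer probe 303112 by -0.14 and -0.13. COL4A2 probe 431023 read 1.068 to 1.24 in small, 0.65 to 1.065 in medium and 0.66 to 0.78 in large plaque. Every medium and large artery thus lay below every small one, by a very narrow margin for medium replicate 3. Its differences of -0.24 ± 0.14 and -0.45 ± 0.16 were not called (limma adjusted p 0.383 and 0.183). COL4A3 differed by -0.32 and 0.44 and COL4A4 by 0.04 and -0.12, with no call.

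COL13A1 was called in both comparisons with small plaque. It encodes type XIII collagen, a collagen anchored in the cell membrane at sites of adhesion. The level on its 1 probe, 53100, was 5.18, 5.19, 5.25 and 5.58 in small, 2.45, 3.50, 3.80, 2.37 and 2.82 in medium, and 3.01, 4.19 and 3.20 in large plaque. All small arteries lay above all others, and medium replicates 1, 4 and 5 were again the lowest of their group. The level fell by 2.31 ± 0.33 (4.97-fold, limma adjusted p 0.00323) from small to medium plaque. This call held under all 23 alternative settings, the looser threshold of 0.1 again among them. The level fell by 1.83 ± 0.37 (3.56-fold, limma adjusted p 0.0397) from small to large plaque, a call that was lost, with limma adjusted p from 0.0547 to 0.19, without small replicate 2, 3 or 4, medium replicate 5 or large replicate 1 or 3. With all arteries kept it was also lost under quantile normalization (0.0571), with the floor at the 1st percentile (0.0535) and with the block for replicate number (0.0756). COL23A1, the other transmembrane collagen on the array, differed by 0.44 ± 0.36 and 0.03 ± 0.41.

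Type IX collagen is a FACIT of 3 chains that coats type II fibrils in cartilage, and its genes differed in direction. COL9A1 read -0.33, -0.59, -0.32 and -0.52 in small, -0.90, -0.86, -0.72, -0.55 and -0.90 in medium, and -1.10, -1.52 and -2.21 in large plaque. The 3 large arteries lay below the other 9. The level fell by 1.16 ± 0.23 (2.24-fold, limma adjusted p 0.0381) from small to large plaque. The difference was -0.34 ± 0.21 in medium against small plaque (limma adjusted p 0.411) and -0.82 ± 0.22 in large against medium plaque (limma adjusted p 0.793). The probe is dimmer than the median probe, and the call was lost, with limma adjusted p from 0.054 to 0.136, without small replicate 2, 3 or 4, medium replicate 2, 3 or 5 or large replicate 2 or 3. It was also lost with only the large and small arteries in the fit (0.126) and with the block for replicate number (0.112).

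COL9A2 read 0.30, 0.42, -0.37 and -0.07 in small, 0.99, 0.35, 1.13, 0.97 and 0.96 in medium, and 1.32, 0.60 and 1.39 in large plaque. Medium replicate 2, the artery with the smallest plaque of its group, was the medium artery that overlapped the small ones. Its differences of 0.81 ± 0.24 and 1.03 ± 0.27 were not called between groups (limma adjusted p 0.0902 and 0.0857). COL9A3 read the floor on 6 of 12 arrays. None of 6 markers of cartilage-like cells was called in any comparison. Their summed intensity was 19.8 to 24.7 in small, 22.4 to 31.7 in medium and 28.004 to 32.66 in large plaque.

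The FACIT collagens that bind type I fibrils differed little. COL14A1 probe 226020 differed by -0.02 ± 0.25 (95% interval -0.57 to 0.52) in medium and by -0.10 ± 0.28 (-0.72 to 0.52) in large plaque, and its other probes by 0.11 and 0.17 (92033) and by 0.06 and -0.33 (450019). COL12A1 differed by -0.22 ± 0.32 and -0.00 ± 0.36. The 4 other FACIT genes, COL16A1, COL19A1, COL20A1 and COL21A1, had differences between -0.92 and 0.20 with no call.

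**Figure D3:**
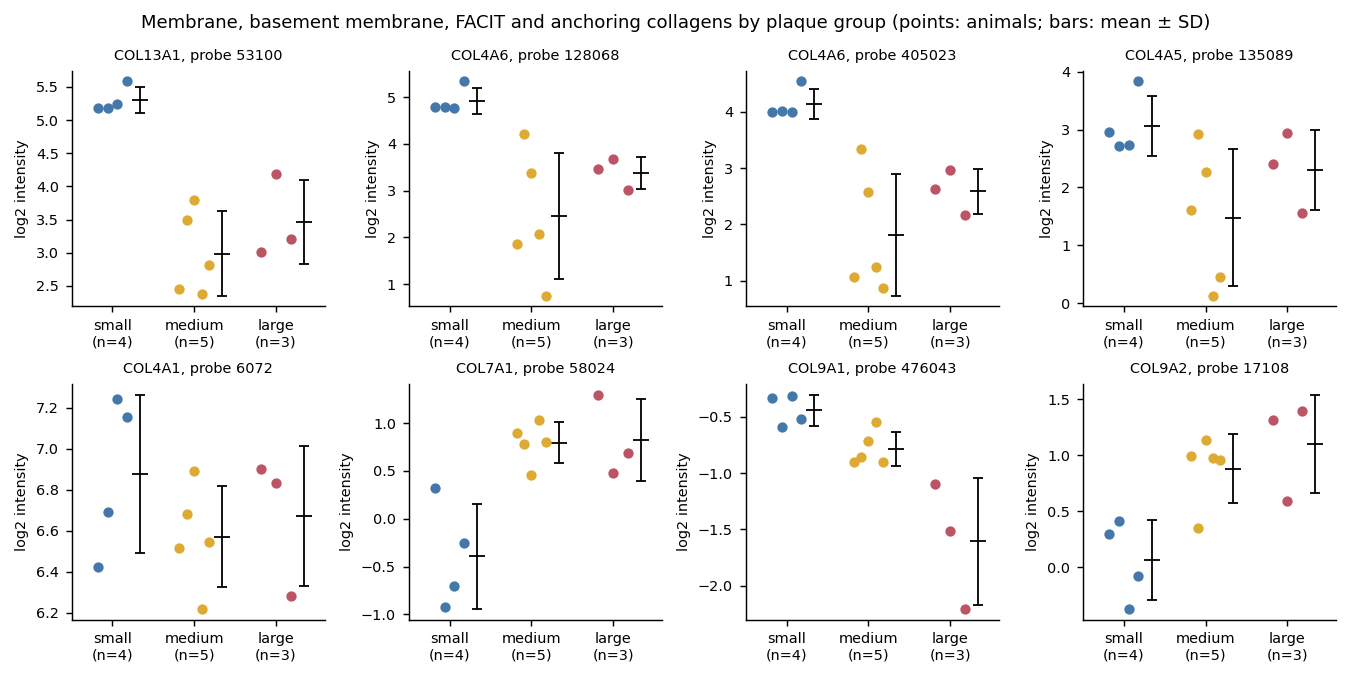
Log2 intensity of basement membrane, transmembrane, FACIT and other collagen probes in each of the 12 arteries, by plaque group; points are arteries and bars are the group mean ± SD (n = 4, 5 and 3). Both COL4A6 probes and COL13A1 are highest in the 4 small-plaque arteries, COL9A1 is lowest in the 3 large-plaque arteries and COL7A1 is lowest in the small-plaque arteries.

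COL7A1, whose product forms the anchoring fibrils below the epidermis, was the 1 collagen gene called higher between groups. It read 0.32, -0.93, -0.71 and -0.26 in small, 0.89, 0.79, 0.46, 1.04 and 0.81 in medium, and 1.30, 0.48 and 0.69 in large plaque. Every small artery lay below every other artery, by a narrow margin for small replicate 1. The level rose by 1.19 ± 0.26 (2.28-fold, limma adjusted p 0.0303) from small to medium plaque, and the difference in large plaque was 1.22 ± 0.30 (limma adjusted p 0.0701). The call was lost, with limma adjusted p from 0.0509 to 0.0852, without small replicate 2, 3 or 4 or medium replicate 1, 2, 4 or 5.

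Type VI collagen forms beaded filaments around cells from the products of COL6A1, COL6A2 and COL6A3. COL6A1 read -0.46, -0.46, 0.03 and -0.32 in small, -1.999, -0.78, -0.29, -2.34 and -0.96 in medium, and -1.39, -2.06 and -0.93 in large plaque. It differed by -0.97 ± 0.39 and -1.16 ± 0.45 (limma adjusted p 0.213 and 0.231). COL6A2, its neighbour in the macaque annotation, read 0.13, -1.42, 0.03 and -1.09 in small, 0.20, -0.94, -0.29, -1.45 and -0.86 in medium, and 0.94, 0.31 and 0.59 in large plaque. The 3 large arteries were the highest of the 12, at 1.20 ± 0.44 over small and 1.28 ± 0.42 over medium plaque, with no call (limma adjusted p 0.208 and 0.894). COL6A3 differed by -0.24 and 0.18. The 3 probes, like that of COL9A1, are dimmer than the median probe of the array.

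COL15A1 and COL18A1 encode collagens of the basement membrane zone, the second being the precursor of endostatin. COL15A1 read 3.32, 4.76, 5.29 and 4.76 in small, 3.18, 3.43, 4.17 and 4.18 in medium replicates 1, 2, 3 and 5 (medium replicate 4 had no value), and 3.32, 3.46 and 3.25 in large plaque. Small replicate 1, the small artery with the most plaque, read like the large arteries, and the other 3 small arteries were the highest of all. The differences of -0.79 ± 0.39 and -1.19 ± 0.42 were not called (limma adjusted p 0.307 and 0.196), but the second was called (limma adjusted p 0.028) without small replicate 1. COL18A1 differed by -0.72 ± 0.36 and -0.89 ± 0.40 (limma adjusted p 0.307 and 0.306). COL10A1, COL26A1, COL28A1 and COL6A5 had differences between -0.55 and 0.35 with no call.

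For 2 genes the brightest probe varied between single arteries far more than the groups differed, and the other probe did not. COL4A2 probe 408111 read -2.10, 4.06, 5.27 and 5.02 in small, 3.53, 0.15, 4.63, 3.63 and 3.81 in medium, and 5.39, 3.93 and 4.84 in large plaque. Small replicate 1 and medium replicate 2 were low on this probe, while on probe 431023 they read 1.07 and 0.86, inside the range of the rest. COL8A1 encodes a chain of type VIII collagen, a short-chain network made by vascular cells. Its probe 128110 read 6.99, 3.08, 3.02 and 3.54 in small, 2.76, 3.10, 2.70, 2.32 and 6.60 in medium, and 6.46, 4.64 and 3.31 in large plaque. Small replicate 1, medium replicate 5 and large replicate 1 were high, with 1 such artery in each group. On probe 88090 these 3 read 2.86, 1.76 and 1.89, beside 0.72 to 2.74 in the other 9 arteries. The differences on probe 88090, -0.95 ± 0.28 in medium and -0.45 ± 0.32 in large plaque, were not called (limma adjusted p 0.093 and 0.532). The group differences of the bright probes, 0.09 ± 1.36 and 1.66 ± 1.55 for COL4A2 and -0.66 ± 1.03 and 0.65 ± 1.17 for COL8A1, could not be read at this spread.

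**Figure D4:**
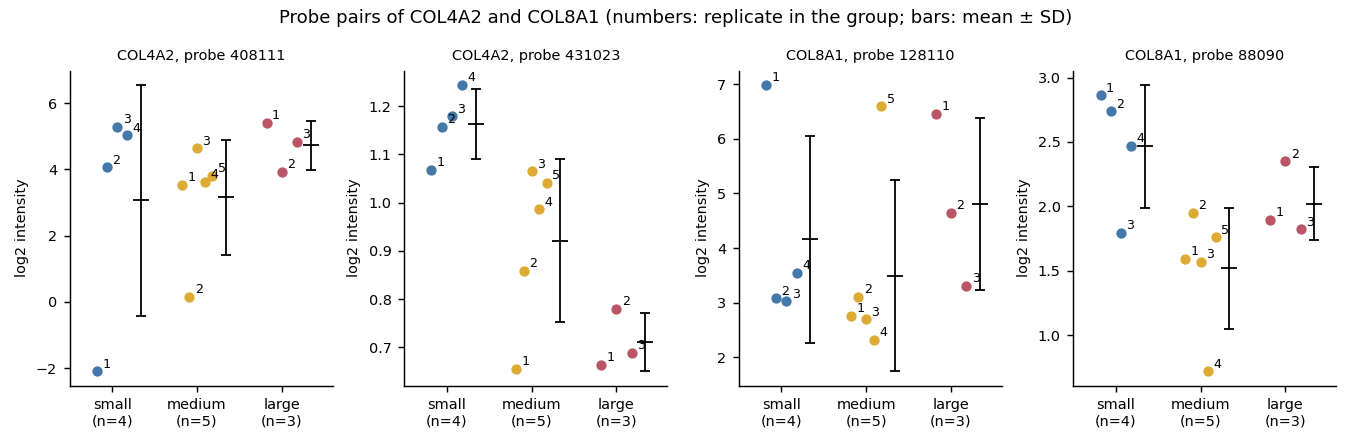
Log2 intensity of the paired probes of COL4A2 and COL8A1 in each of the 12 arteries, numbered by replicate within the plaque group, with bars for the group mean ± SD. On COL4A2 probe 408111 small replicate 1 lies at -2.10 and medium replicate 2 at 0.15, and on COL8A1 probe 128110 small replicate 1, medium replicate 5 and large replicate 1 lie between 6.46 and 6.99, while the other probe of each gene shows no such gap.

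Of the 9 genes with several measured probes, 5 had probes of the same sign in medium against small plaque, namely COL1A1, COL28A1, COL4A1, COL4A6 and COL8A1. The probes of COL14A1, COL1A2, COL27A1 and COL4A2 differed in sign there. COL4A6 was the 1 gene called on more than 1 probe.

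Plaque area was also used as a number in place of the 3 groups, which asks whether a collagen level followed area over all 12 arteries. The slope of log2 intensity per mm2 was called for 2 of 51 collagen probes (3.92%), 1 up and 1 down, beside 0.583% of all probes, 0.483% up and 0.1% down. At an unadjusted limma p under 0.05 stood 12 collagen probes, beside 15.9% of all probes. COL27A1 probe 311014 fell by 3.00 ± 0.57 per mm2 (limma adjusted p 0.039), with the highest level, 6.86, at 0.041 mm2 and the lowest, 3.09, at 0.873 mm2. The artery with the largest plaque, 1.003 mm2, read 4.17, inside the range of the medium arteries. COL9A2 rose by 1.42 ± 0.29 per mm2 (limma adjusted p 0.0489). Values for COL7A1 and COL13A1, 1.68 ± 0.38 and -2.66 ± 0.66 per mm2, were not called (limma adjusted p 0.063 and 0.0782), nor was that of COL9A1 at -1.21 ± 0.33 (limma adjusted p 0.103).

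Both slope calls rest on most of the arteries together. That of COL27A1 was lost, with limma adjusted p from 0.0513 to 0.14, without any 1 of the 4 small arteries, medium replicate 3, 4 or 5 or large replicate 2 or 3. That of COL9A2 was lost, with limma adjusted p from 0.0538 to 0.141, without any 1 artery other than medium replicate 1. With all arteries kept, both were lost with the floor at the 1st percentile (0.0544 and 0.0626) or the 20th (0.054 and 0.0505), and that of COL9A2 with array weights (0.0547). The block for replicate number also ended both, at limma adjusted p 0.1778 for COL27A1 and 0.1995 for COL9A2. No collagen probe was called without both animals of distant identity number. The median slope over 38 collagen genes was -0.05 per mm2, as over 18080 genes. For the 2 COL1A1 probes the slopes were 0.69 ± 0.44 (145091) and 0.31 ± 0.26 (358086), for COL1A2 0.88 ± 0.48 and for COL3A1 -0.53 ± 0.27 per mm2, none of them called.

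**Figure D5:**
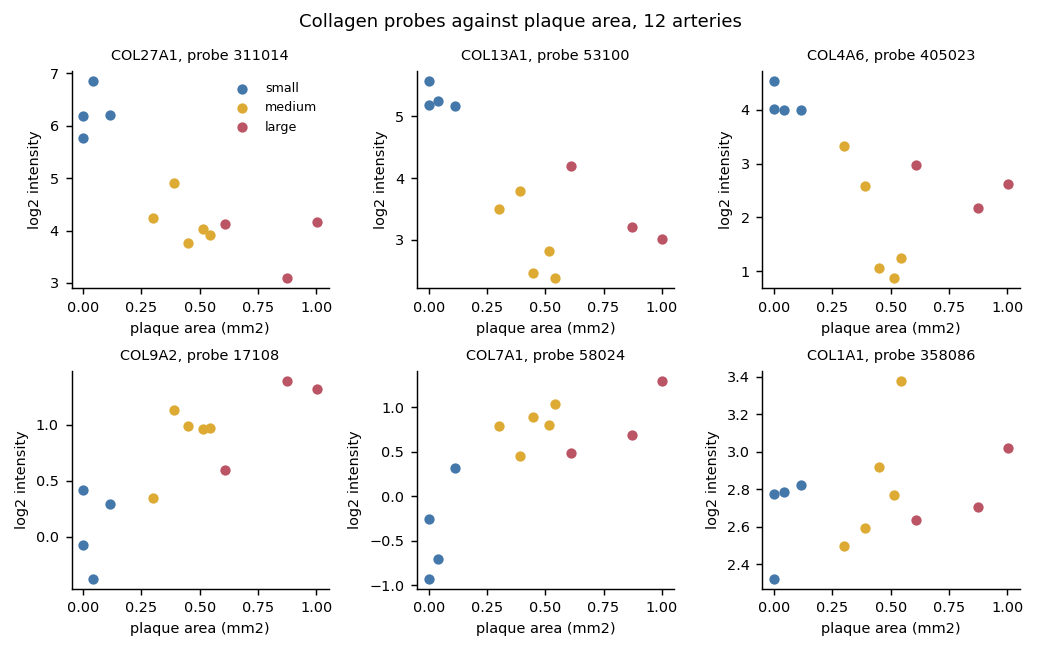
Log2 intensity of selected collagen probes against plaque area in mm2, 1 point for each of the 12 arteries, coloured by plaque group. COL27A1 probe 311014 declines from between 5.77 and 6.86 in the small-plaque arteries, and COL9A2 climbs from between -0.37 and 0.42.

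Whether chains of the same protein or fibril moved together from artery to artery was asked for 6 pairs on their representative probes, over 12 arteries with group means taken out and with two-sided permutation tests within groups. No pair passed after Benjamini-Hochberg over the 6. COL4A5 and COL4A6 were not among these pairs. The brighter COL1A1 probe, 145091, has no value in medium replicate 5 and was not used. Results for COL1A1 here thus hold for its dimmer probe only. COL1A1 (358086) and COL1A2 (145105) had Pearson's r -0.118 (permutation p 0.724) and Spearman's rho -0.0979 (permutation p 0.784), with r 0.389 without the 2 arteries farthest from the median of COL1A1. COL4A1 (6072) and COL4A2 (408111, the probe with a wide spread between arteries) had r 0.505 (permutation p 0.162) and rho 0.678 (permutation p 0.0204, 0.123 after Benjamini-Hochberg over 6 pairs), with r 0.352 without small replicates 3 and 4, the 2 farthest from the median of COL4A1. The low arteries of that COL4A2 probe, small replicate 1 and medium replicate 2, were still included. COL1A1 with COL3A1 (r -0.549, rho -0.531) and with COL5A2 (-0.469, -0.434), COL3A1 with COL5A2 (0.0441, 0.196) and COL6A1 with COL6A2 (0.214, 0.189) had adjusted permutation p-values of 0.324 to 0.895 for r and 0.345 to 0.689 for rho. Without the 2 farthest arteries their r was -0.404, -0.0672, 0.0642 and -0.167. The arrays share their preparation and scaling, which can itself move probes together.

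Lists of genes that act on collagen were read by their counts of calls, and no test compared the lists. Of 13 measured proteases and inhibitors of collagen breakdown, 4 rose and 1 fell from small to medium plaque, beside the 1.97% and 1.17% of all probes called higher and lower. The 4 were the lysosomal cysteine proteases CTSS at 3.96, CTSB at 3.74, CTSL at 2.21 and CTSK, a collagenase of macrophages and osteoclasts, at 1.40. The same 4 rose from small to large plaque, at 4.69, 4.68, 1.93 and 1.60 (limma adjusted p 0.002, 0.00474, 0.00426 and 0.0174). In that comparison 0.948% of all probes were called higher. TIMP3, an inhibitor of matrix metalloproteases bound to matrix, fell by 0.70 ± 0.17 from small to medium plaque (limma adjusted p 0.0482), a call lost at 0.057 to 0.116 without any 1 artery other than small replicate 4 and medium replicate 2. CTSK lost its call in large plaque without large replicate 1 or 3 (limma adjusted p 0.0638 and 0.11). Macrophage markers rose in the same arteries, and the part of macrophage content in the rise of the cathepsins was not tested. No matrix metalloprotease of the list was called.

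None of 16 genes of chain modification and secretion was called between groups. PLOD1, a lysyl hydroxylase, stood at 1.04 ± 0.26 in medium and 1.34 ± 0.29 in large plaque (limma adjusted p 0.0502 and 0.0515), CRTAP, a part of the prolyl 3-hydroxylase complex, at -1.89 ± 0.51 in medium plaque (limma adjusted p 0.0683) and FKBP14, a folding helper of the endoplasmic reticulum, at -0.95 ± 0.25 in large plaque (limma adjusted p 0.0901). The CRTAP probe is dimmer than the median probe of the array. By area PLOD1 rose by 1.74 ± 0.34 per mm2 (limma adjusted p 0.043), and FKBP14 fell by 1.27 ± 0.26 per mm2 (limma adjusted p 0.0485). Both slope calls were lost without any 1 artery other than medium replicate 1. None of 12 genes of propeptide removal and crosslinking was called. Below 0 lay 10 of them in medium and all 12 in large plaque, with median differences of -0.32 and -0.45. Over 18080 genes the medians also lay below 0, at -0.03 and -0.05. These signs were not tested. The smallest p in that list was that of BMP1, the procollagen C-proteinase, in medium plaque (-0.72 ± 0.19, limma adjusted p 0.0609), and of LOXL2, a lysyl oxidase, in large plaque (-0.77 ± 0.25, limma adjusted p 0.154), followed by LOXL4 at -0.38 ± 0.14 and -0.44 ± 0.16 (limma adjusted p 0.165 and 0.192). None of 12 fibril organisers was called, and lumican (LUM) stood at 1.69 ± 0.62 and 2.17 ± 0.70 (limma adjusted p 0.17 and 0.156), FMOD, which encodes fibromodulin, at 0.53 ± 0.24 in medium plaque and SPARC at -0.66 ± 0.26 in large plaque.

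Of 12 collagen receptors, CD36, a scavenger receptor that also binds collagen, rose by 2.82 ± 0.45 in medium (limma adjusted p 0.00678) and by 2.87 ± 0.51 in large plaque (limma adjusted p 0.0221), the second call being lost without small replicate 3 or 4 or large replicate 1 or 3 (limma adjusted p 0.0501 to 0.127). The CD36 call in large plaque was also lost with the block for replicate number (limma adjusted p 0.0538). OSCAR, a collagen receptor of myeloid cells, rose by 1.03 ± 0.23 in medium plaque (limma adjusted p 0.0335), lost at 0.0509 to 0.0838 without small replicate 1, 2 or 4 or medium replicate 1, 3, 4 or 5. Both receptors are made by macrophages, whose markers rose in the same arteries, and that part was not tested. No integrin subunit and neither discoidin domain receptor of the list was called. Of all probes, 1.97% were called higher in medium and 0.948% in large against small plaque.

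Of 16 regulators of collagen transcription, TGFB2, a ligand of the TGF-beta pathway, fell by 1.02 ± 0.21 in medium plaque (limma adjusted p 0.0219), lost at 0.052 to 0.0551 without small replicate 4 or medium replicate 1 or 4. SMAD4, the shared transcription factor of that pathway, fell by 0.89 ± 0.19 (limma adjusted p 0.0266), lost at 0.0557 to 0.07 without small replicate 1 or 2 or medium replicate 1, 4 or 5. TGFB1, the ligand best known for raising collagen synthesis, rose by 2.14 ± 0.45 in large plaque (limma adjusted p 0.0462), lost at 0.0535 to 0.176 without any 1 artery of the small or large group or medium replicate 2 or 3. Of all probes, 1.17% were called lower in medium and 0.948% higher in large against small plaque. In large plaque COL1A1, COL1A2 and COL3A1 were not called, and whether TGFB1 acted on any collagen gene was not tested.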

How the data were processed

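Gene expression was measured in 12 arteries, 1 array each. Each RNA was copied into biotin-labelled cRNA and hybridized to 1 human CodeLink array, per the labels' protocols. The values deposited by the authors are linear probe intensities scaled to an array median near 1, some of them below 0. How the images were read and background and scale set is not given in the sources used here. Array medians lay together, so no further normalization was applied. Intensities under 0.111, the 5th percentile of positive values, were set to it (log2 -3.17; 5.45% of values), so differences of dim probes are understated. Probes with at least 2 values per group were kept (53877 of 54359; 479 were empty, and 293 kept probes lack a value on some array). Gene names came from the platform annotation: 23267 tested probes had 1 symbol, 900 several and 29710 were unnamed here.

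Log2 intensity was fitted with limma 3.58.1 (R 4.3.3) over all 12 arrays, with 3 group means or plaque area, eBayes, and two-sided p-values adjusted together for all tested probes (Benjamini-Hochberg, threshold 0.05). Replicates are separate animals. The number of arrays limits the precision. Named were every probe of COL1A1 and COL27A1, each collagen gene with a called probe, the fibrillar and basement membrane genes and selected others, and from each pathway list up to 4 called genes (or the 2 of smallest p) on the brightest probe; names outside this rule (TIMP3, COL9A3 and genes given by range) were added after their values were seen. Members, lists and this rule were chosen with earlier results of these data known. The code was tested on simulated data. Alternatives covered normalization, floor, filters, array weights, eBayes settings, threshold, grouping, a replicate block and left-out arteries. The labels name no pairing of the animals by replicate number. Deviations from the group mean correlated at -0.159 to 0.216 between same-numbered arteries. Differently numbered arteries were not compared, so these values cannot decide whether the numbers mark a shared grouping.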

Additional observations from a re-analysis of the deposited data

Results flagged for a closer look

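In groups of 4 or 5 arteries, the highest or lowest log2 level was compared with the nearest other (Dixon's criterion at 95%), which chance meets in about 1 of 20 groups. It was met in 14 of 102 groups of collagen probes, 4 times by small replicate 4, 3 times by medium replicate 2, and by no large-plaque artery, since a group of 3 was not tested.

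Small replicate 4 was highest of its group on both COL4A6 probes, at 5.34 (next 4.79, probe 128068) and 4.54 (next 4.02, probe 405023). It was also highest on COL12A1, at 0.22 (next -0.31), and lowest on COL1A1 probe 358086, at 2.32 (next 2.77). Its identity number lies far from most others.

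Small replicate 1 was lowest on COL4A2 probe 408111, at -2.10 (next 4.06), and highest on COL8A1 probe 128110, at 6.99 (next 3.54). On the same probes medium replicate 2 was lowest for COL4A2, at 0.15 (next 3.53), and medium replicate 5 highest for COL8A1, at 6.60 (next 3.10). The second probe of each gene showed no such value in these arteries.

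Medium replicate 2 was lowest on COL9A2, at 0.35 (next 0.96), and on COL16A1, at the floor of -3.17 (next -1.71). Medium replicate 3 was lowest on COL12A1, at -1.49 (next -0.28), and highest on COL27A1 probe 448005, at -0.27 (next -0.46). Medium replicate 4 was highest on COL20A1, at 2.23 (next 1.98). Medium replicate 5 was highest on COL26A1, at -2.58 (next -3.04), near the floor.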

How the results depend on the processing

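The 5 collagen probes called in medium against small plaque became 3 with a replicate block and 2 without both animals of distant identity number, with a range of 3 to 5 when 1 artery was left out, and 7 at an adjusted p under 0.1 or with probes brighter than the median only. The 3 in large against small plaque became 5 with trended and robust eBayes or at an adjusted p under 0.1, 1 with the replicate block and 1 without both distant animals, with a range of 1 to 5. The 2 slopes became 0 with the floor at the 1st or the 20th percentile, 0 with the replicate block, 0 without both distant animals, 1 with array weights, and 4 with probes brighter than the median only, at an adjusted p under 0.1 or on the square root of area, with a range of 0 to 2. Large against medium plaque stayed at 0 in every setting run. The causes were not tested, apart from the smaller number of arteries or residual degrees of freedom that leaving out and blocking bring by construction. The labels name no pairing of the animals by number, so the block may match no real grouping. Whether calls lost under it reflect weaker effects was not tested.

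The median difference of collagen genes in medium against small plaque, -0.117, ran from -0.231 (without medium replicate 1) to -0.081 when 1 artery was left out. Called results kept their direction: 50 of them, for single probes, gave 1149 values under alternatives, 874 of which kept the call and 275 lost it, and 234 results not called gave 5315, of which 98 were called in the same direction. The 874 include the values at the looser threshold of 0.1, which keeps every call by construction. Of those 234, 70 changed sign in at least 1 setting (192 values), such as COL4A2 probe 408111 and COL3A1 in medium plaque and COL2A1 in large plaque. Of the results not called, 3 values moved by over 1 SD: COL9A1 in large against medium plaque to -0.52 without large replicate 3, and PLOD2 to -0.23 (medium against small) and 0.14 (large against medium) with the floor at the 20th percentile. The calls of TGFB1, TGFB2 and TIMP3 and the slopes of PLOD1 and FKBP14 were also lost under settings other than the block that kept all arteries. With all arteries kept, the calls of SMAD4 and OSCAR in medium plaque were lost under the block only. Both were also lost with only the medium and small arteries in the fit (limma adjusted p 0.0525 for each). COL27A1 in both comparisons with small plaque and COL13A1 in medium plaque kept their calls throughout. Collagen probes below the array median, such as those of COL9A1, COL6A1 and COL6A2, are limited by signal over background.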
